A study of Mus musculus with 28 samples.

Results

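RNA polymerase II (Pol II), the enzyme that transcribes protein-coding genes, is built from subunits encoded by the *Polr2* genes. The 10 genes *Polr2a* to *Polr2j* were taken by name, and all 10 were among the 15384 genes with a value in every RNA-seq library. The data are from mouse embryonic stem cells (mESCs) of the E14 line. RNA-seq compared cells transfected with lentiviral vectors carrying a scrambled control shRNA (Control, 4 libraries) with cells that received a pair of *Ssrp1* shRNAs (Ssrp1-KD, 4 libraries), both from the set with added spike-in RNA. Cells of both groups were selected with puromycin (2 μg/ml) from 48 h after transfection for 24 h, so the comparison is of a bulk, recently transfected population and of 1 shRNA combination. SSRP1 and SUPT16 are the subunits of the histone chaperone FACT, and E14 cells with no treatment in their labels also gave 1 peak list for each of them by ChIP-seq and 2 libraries of chromatin-associated RNA.

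Pol II works as a multi-subunit complex in which the largest subunits form the active site and the small ones serve as an assembly platform, a stalk that emerging RNA passes, and contacts with DNA and initiation factors. Several small subunits are also parts of Pol I and Pol III, which make ribosomal and transfer RNA. The C-terminal domain of the largest subunit is a repeated sequence whose phosphorylation follows the transcription cycle, and FACT takes apart and rebuilds nucleosomes in the path of the enzyme.

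The knock-down was visible in every library. *Ssrp1* had library-size-scaled values (reads per gene scaled by the authors to library size) of 223 to 261 in Control and 24.1 to 28.9 in Ssrp1-KD, a log2 fold change of -3.15. *Supt16*, which was not targeted, was at 319 ± 22.0 in Control and 503.9 ± 20.2 in Ssrp1-KD (SD, n = 4; log2 fold change 0.66). Its log2 fold change was 1.69 with spike-in scaling, 0.23 with scaling to reads on genes, and 0.03 with quantile normalisation. For the protein, the paper reports a depletion of SUPT16 by mass spectrometry. Reads on genes ranged from 4602278 to 6680919 in Control and from 9433193 to 19856032 in Ssrp1-KD, so the Ssrp1-KD values are the more finely counted. The scaled values summed to between 825584 and 909417 in Control and between 1137293 and 1182584 in Ssrp1-KD. They thus do not give each library the same total on genes. The paper's methods name TMM normalisation, which adjusts each library size by a factor. TMM scaling of the reads gave the same log2 fold changes, -3.15 for *Ssrp1* and 0.66 for *Supt16*, so the deposited values are close to a TMM scaling. The part of the scaling in the results was followed with other scalings. The 9 pluripotency markers were measured in all libraries, and their library-size-scaled values summed to 1640 to 1762 in Control and 4707 to 5193 in Ssrp1-KD. Such a sum does not show whether the single markers moved alike. Of 7 markers each, 5 neural ones summed to 83.7 to 107 and 144 to 156, and 5 fibroblast ones to 62.9 to 85.9 and 21.1 to 25.0, and the part of cell composition was not tested. In bulk RNA, fewer cells of a type and less RNA per cell cannot be told apart.

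FACT peaks lay at 3 of the 10 genes. SSRP1 peaks were assigned to *Polr2a*, *Polr2c*, and *Polr2e* (3 of 10, against 36.0% of the 15384 genes) and SUPT16 peaks to *Polr2a* and *Polr2e* (2 of 10, against 18.6%). The lists were called on 2 replicates together and hold no heights, so there is no error on them. At *Polr2a*, the gene of the largest subunit, a SSRP1 peak of 1372 bp (chr11:69757969-69759340, mm10) and a SUPT16 peak of 840 bp (chr11:69758221-69759060) both covered the start site at 69758633. Both were also assigned to *Amac1*. At *Polr2c* a SSRP1 peak of 490 bp (chr8:94857337-94857826) covered the start site at 94857450. At *Polr2e* a SSRP1 peak of 490 bp (chr10:80039149-80039638) lay inside the gene and ended 21 bp from the start site at 80039659. The other *Polr2e* peaks lay outside the gene. One of SSRP1 was 7722 bp upstream, within 1000 bp of the *Gpx4* start, and one of SUPT16 was 5369 bp downstream of the start. With the requirement of a peak within 1000 bp of a start site, the SUPT16 count was 1 of 10 against 15.6% of genes, and the SSRP1 count stayed at 3 against 26.0%.

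The promoter sequences of these 3 genes are given because FACT peaks lay at or next to them. Each is the 250 bases before the RefSeq start site, 5′ to 3′ on the gene's strand, from GRCm38.p6, with matches on either strand to TATAAA, the core letters of the motif bound by TBP, and to GGGCGG, the GC box bound by SP-family factors, in capitals. No match overlapped another. Both FACT peaks of *Polr2a* covered all 250 bases of its window, the *Polr2c* peak covered 113 bases, and the *Polr2e* peaks covered 0 bases.
Polr2a (chr11:69758634-69758883, minus strand): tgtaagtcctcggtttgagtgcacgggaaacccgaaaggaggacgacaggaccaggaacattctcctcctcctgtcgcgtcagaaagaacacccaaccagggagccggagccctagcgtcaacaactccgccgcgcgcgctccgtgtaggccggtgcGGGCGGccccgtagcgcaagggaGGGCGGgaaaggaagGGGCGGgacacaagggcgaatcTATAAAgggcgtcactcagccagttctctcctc
Polr2c (chr8:94857200-94857449, plus strand): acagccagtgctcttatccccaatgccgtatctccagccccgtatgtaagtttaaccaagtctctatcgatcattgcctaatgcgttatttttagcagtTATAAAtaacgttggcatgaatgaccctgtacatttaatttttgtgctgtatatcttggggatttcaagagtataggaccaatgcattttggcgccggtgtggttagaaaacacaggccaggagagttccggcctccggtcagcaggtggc
Polr2e (chr10:80039660-80039909, minus strand): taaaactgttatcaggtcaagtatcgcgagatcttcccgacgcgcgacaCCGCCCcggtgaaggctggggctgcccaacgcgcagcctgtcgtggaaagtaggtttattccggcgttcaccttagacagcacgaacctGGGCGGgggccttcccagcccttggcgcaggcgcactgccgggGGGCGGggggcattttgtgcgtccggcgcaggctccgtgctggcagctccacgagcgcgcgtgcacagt

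The *Polr2a* window held 1 TATAAA, beginning 33 bases before the start site, 3 GC boxes, and 23 CpG dinucleotides. The *Polr2c* window held 1 TATAAA that began 151 bases before the start, no GC box, and 9 CpGs. The *Polr2e* window held 3 GC boxes, 27 CpGs, and no TATAAA. Of 32851 RefSeq windows of this length, 12.4% held TATAAA and 32.7% a GC box, and the median CpG number was 6. Windows were matched for 8 of the 10 genes, all of them with 9 to 28 CpGs. CCGGAAGT, the letters of an ETS factor site, was found in the *Polr2f* and *Polr2j* windows (2.88% of all windows), and GCGCATGC, part of an NRF1 site, in those of *Polr2b* and *Polr2j* (2.26%). AAGATGGC, part of a YY1 site, was in none of them (1.56% of all windows). These are matches of letters only.

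With the deposited library-size scaling, *Polr2a* fell and *Polr2e*, *Polr2h*, and *Polr2i* rose after *Ssrp1* knock-down. With spike-in scaling the fall of *Polr2a* did not pass the test (log2 fold change -0.09, limma adjusted p = 0.78). With scaling to reads on genes the rises kept an adjusted p below 0.01 but were under a log2 fold change of 1 (0.95, 0.92, and 0.80). At the study's thresholds (log2 fold change beyond 1 in either direction with an adjusted p below 0.01, limma), 3 of the 10 genes were higher in Ssrp1-KD, *Polr2e*, *Polr2h*, and *Polr2i*, and 1, *Polr2a*, was lower. Among all genes 8.07% passed in the upward and 20.6% in the downward direction. With the adjusted p alone, 7 of 10 were higher, against 35.4% of all genes, and 1 was lower, against 37.3%. The 4 Control and 4 Ssrp1-KD values did not overlap in 8 of the 10 genes, against 73.3% of all genes, so a lack of overlap is common in these data. The median log2 fold change was 0.81 over the 10 genes and -0.03 over all genes. The median over the 10 genes was 1.83 with spike-ins (all genes 0.95), 0.50 with quantile normalisation (0.05), 0.39 with reads on genes (-0.45), and 0.31 after correction for exon length (0.10). These numbers depend on the scaling, which is described after the single genes.

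**Figure D1:**
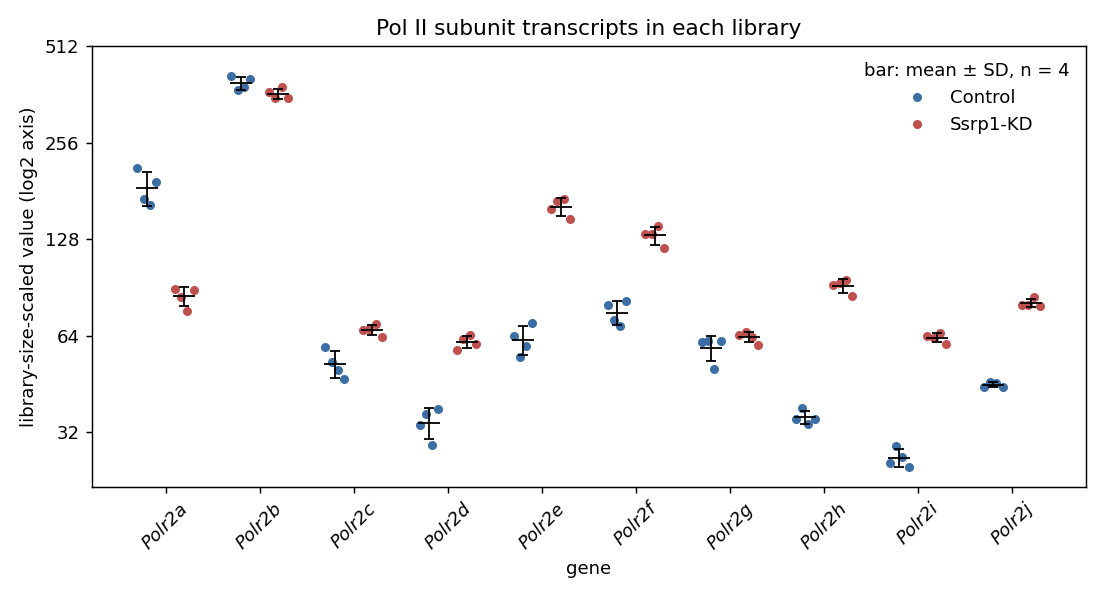
Library-size-scaled values (log2 axis) of the 10 Pol II subunit genes in 4 Control and 4 Ssrp1-KD libraries, each point a library, with mean and SD. *Polr2a* lay at 164 to 214 in Control and 76.7 to 89.8 in Ssrp1-KD, *Polr2e* at 54.9 to 70.0 and 148 to 171, and the groups overlapped only in *Polr2b* and *Polr2g*.

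*Polr2a* (chr11:69734410-69758223, minus strand, 28 exons, 5799 bp of exons) encodes RPB1, which carries most of the active site and the C-terminal domain. In Control, replicates 1 to 4 gave 214, 170.4, 164, and 193, and in Ssrp1-KD, in the same order of replicate numbers, 89.8, 84.8, 76.7, and 88.8. Every Ssrp1-KD library lay below every Control library, at 0.460 of the Control mean (log2 fold change -1.11, SE 0.072, limma adjusted p = 1.0e-13). *Polr2b* (chr5:77310484-77349328, plus strand, 25 exons, 3812 bp) encodes RPB2, the other large subunit, which closes the active site with RPB1. It had the highest values of the 10, 413, 373, 380.3, and 403 in Control and 368, 353, 381, and 353 in Ssrp1-KD. The groups overlapped, and the difference did not pass the test (log2 fold change -0.11, SE 0.055, limma adjusted p = 0.076). Its exons share 89 bp with *Igfbp7* on the opposite strand, which was at 5.51 ± 0.638 in Control and 4.33 ± 0.644 in Ssrp1-KD (SD, n = 4), and whether the counting used the strand is not given by the sources. Per kilobase of exon, *Polr2b* was at 2.94 to 3.53 times *Polr2a* in the Control libraries and at 6.05 to 7.56 times in the Ssrp1-KD libraries, a ratio that a single factor per library cannot change.

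*Polr2c* and *Polr2j* encode RPB3 and RPB11, the pair on which the enzyme is assembled. *Polr2c* (chr8:94857450-94864242, plus strand, 9 exons, 1580 bp) was at 59.1, 53.2, 50.2, and 47.0 in Control and 66.7, 67.4, 69.5, and 63.7 in Ssrp1-KD. The Ssrp1-KD libraries were all higher, by a log2 fold change of 0.35 (SE 0.071, limma adjusted p = 6.9e-05), under the fold threshold, and were at -0.08 on that scale when libraries were scaled to reads on genes. Its exons overlap those of *Dok4* on the opposite strand by 415 bp, and *Dok4* was at 14.6 ± 1.59 and 12.6 ± 0.966 (SD, n = 4). *Polr2j* (chr5:136116691-136122947, plus strand, 4 exons, 586 bp) was at 44.2, 46.0, 45.7, and 44.4 in Control and 79.6, 80.1, 84.2, and 79.3 in Ssrp1-KD. This was a log2 fold change of 0.83 (SE 0.063, limma adjusted p = 2.6e-12), and the libraries of each group lay close together. The ratio of *Polr2c* to *Polr2j* per kilobase was 0.393 to 0.495 in Control and 0.298 to 0.312 in Ssrp1-KD, with no overlap. The smoothed log2 fold change of all genes of the same exon length was 0.04 for *Polr2c* and 0.53 for *Polr2j*. Relative to it both genes were at 0.31, and the part of length in the ratio was not tested.

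*Polr2e*, *Polr2f*, and *Polr2h* encode RPB5, RPB6, and RPB8, which Pol I and Pol III also contain. *Polr2e* (chr10:80035953-80039659, minus strand, 7 exons, 1008 bp) had the largest rise of the 10, from 63.98, 54.9, 59.6, and 70.0 in Control to 158, 168, 171, and 148 in Ssrp1-KD. This is a fold of 2.60 (log2 fold change 1.38, SE 0.069, limma adjusted p = 6.0e-16). *Polr2h* (chr16:20717826-20722265, plus strand, 5 exons, 787 bp) was at 35.3, 38.0, 33.9, and 35.3 in Control and 92.2, 93.5, 95.6, and 85.2 in Ssrp1-KD (log2 fold change 1.35, SE 0.067, limma adjusted p = 4.6e-16). In both genes the lowest Ssrp1-KD library was above the highest Control library. *Polr2f* (chr15:79141367-79151767, plus strand, 5 exons, 520 bp) was at 79.6, 71.6, 68.9, and 82.2 in Control and 132.5, 133, 140.3, and 119.9 in Ssrp1-KD, without overlap. Its log2 fold change of 0.80 (SE 0.066, limma adjusted p = 1.9e-11) did not reach the fold threshold.

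*Polr2d* and *Polr2g* encode RPB4 and RPB7, which form the stalk of the enzyme. *Polr2d* (chromosome 18, positions 31789159 to 31796701, plus strand, 4 exons, 1015 bp) was at 33.8, 36.5, 29.2, and 37.7 in Control and 57.8, 62.4, 64.5, and 60.4 in Ssrp1-KD (log2 fold change 0.83, SE 0.079, limma adjusted p = 2.5e-10). *Polr2g* (chr19:8793129-8798557, minus strand, 8 exons, 868 bp) was at 61.3, 61.4, 50.6, and 61.5 in Control and 64.4, 65.7, 63.7, and 60.1 in Ssrp1-KD. The groups overlapped and the test was not passed (log2 fold change 0.12, SE 0.071, limma adjusted p = 0.137). These partners thus did not move alike, and the ratio of *Polr2g* to *Polr2d* per kilobase was 1.91 to 2.12 in Control and 1.15 to 1.30 in Ssrp1-KD, again without overlap. *Polr2i* (chr7:30232074-30233387, plus strand, 6 exons, 690 bp) encodes RPB9, which takes part in transcript cleavage and fidelity. It had the lowest values of the 10 in Control, 25.7, 29.1, 26.9, and 25.0, against 63.8, 63.0, 65.3, and 60.4 in Ssrp1-KD (log2 fold change 1.23, SE 0.074, limma adjusted p = 2.4e-14).

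Exon length moved with the fold change. *Polr2a* and *Polr2b*, at 5799 and 3812 bp, had the lowest fold changes of the 10, and the 3 genes that passed in the upward direction had at most 1008 bp. *Polr2f* (520 bp), *Polr2j* (586 bp), and *Polr2g* (868 bp) were also shorter than that and did not pass (0.80, 0.83, and 0.12). Across the 10 genes, log2 exon length and log2 fold change had a Pearson's r of -0.82 and a Spearman's rho of -0.56, as a description of genes that share the same 8 libraries. Over all 15384 genes Pearson's r was -0.30. The smoothed fold change of all genes of the same length was -0.40 at the length of *Polr2a* and 0.23 at that of *Polr2e*. Relative to it, *Polr2a* was lower by -0.71 and *Polr2e* higher by 1.14, while *Polr2g* was at -0.19 and *Polr2b* at 0.16. After this correction 1 of the 10 genes passed as higher (*Polr2e*) and 0 as lower. Of all 15384 genes, 1360 then passed as higher and 2813 as lower. The part of length or RNA integrity in the result was not tested.

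**Figure D2:**
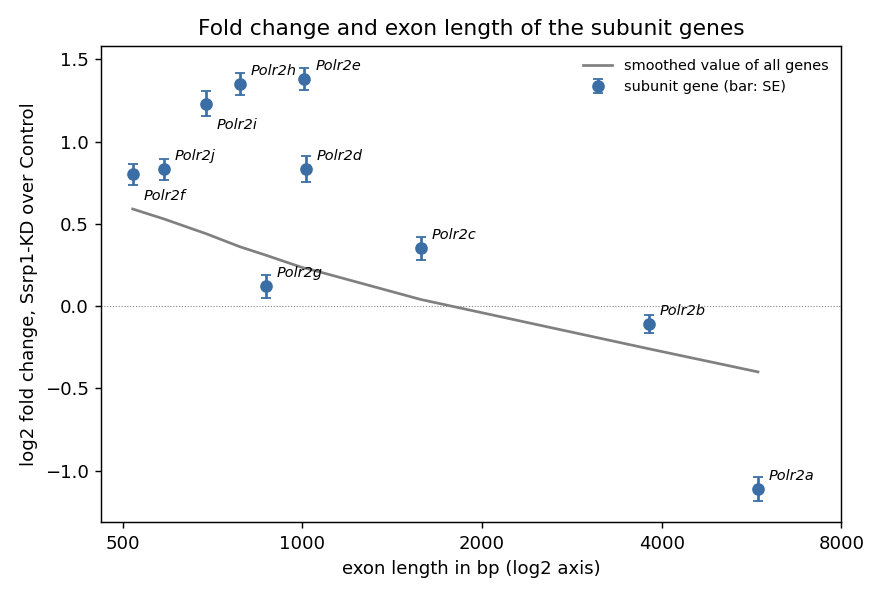
Log2 fold change (Ssrp1-KD over Control, with SE) of the 10 genes against exon length in bp (log2 axis), with the smoothed fold change of all genes at these lengths as a line. *Polr2a* lay 0.71 under the line, *Polr2e* 1.14 above it and *Polr2h* 0.99 above it.

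Levels were also put in order per kilobase of annotated exon. The part of exon length in this order and in its changes was not tested. *Polr2f* led in Control with 145 ± 12.2 (SD, n = 4), followed by *Polr2b* with 103 ± 4.93 and *Polr2j* with 77.0 ± 1.495. *Polr2g* (67.6 ± 6.24) and *Polr2e* (61.6 ± 6.39) overlapped, and *Polr2h* (45.3 ± 2.204) followed. The lowest were *Polr2i* (38.7 ± 2.58), *Polr2d* (33.8 ± 3.71), *Polr2c* (33.1 ± 3.24), and *Polr2a* (31.9 ± 3.90), and each of these overlapped its neighbour in the order. In Ssrp1-KD *Polr2f* still led with 253 ± 16.3 and *Polr2a* was still last with 14.7 ± 1.03. *Polr2e* had moved from place 5 to place 2 (160.2 ± 10.2) and *Polr2b* from place 2 to place 5 (95.4 ± 3.51), where its range overlapped that of *Polr2i* (91.5 ± 3.02).

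The share of each gene in the per-kilobase sum of the 10 genes does not depend on a single factor per library. It does depend on a trend with exon length. The smoothed log2 fold change of all genes was -0.40 at the length of *Polr2a*, -0.26 at that of *Polr2b*, and 0.23 at that of *Polr2e*. The part of length in the shares was not tested. The *Polr2a* share went from 5.00 ± 0.415% to 1.41 ± 0.150% (SD, n = 4 each), and that of *Polr2b* from 16.1 ± 0.489% to 9.14 ± 0.273%. *Polr2g* went from 10.6 ± 0.634% to 7.00 ± 0.204%, and *Polr2c* from 5.21 ± 0.494% to 4.05 ± 0.0288%. The shares of *Polr2e* (9.66 ± 0.764% to 15.3 ± 0.405%), *Polr2h* (7.11 ± 0.431% to 11.1 ± 0.123%), and *Polr2i* (6.09 ± 0.612% to 8.76 ± 0.127%) were higher in every Ssrp1-KD library. The shares of *Polr2d*, *Polr2f*, and *Polr2j* overlapped between the groups. Within each library, the shares are not independent of each other, and no test was made on them.

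**Figure D3:**
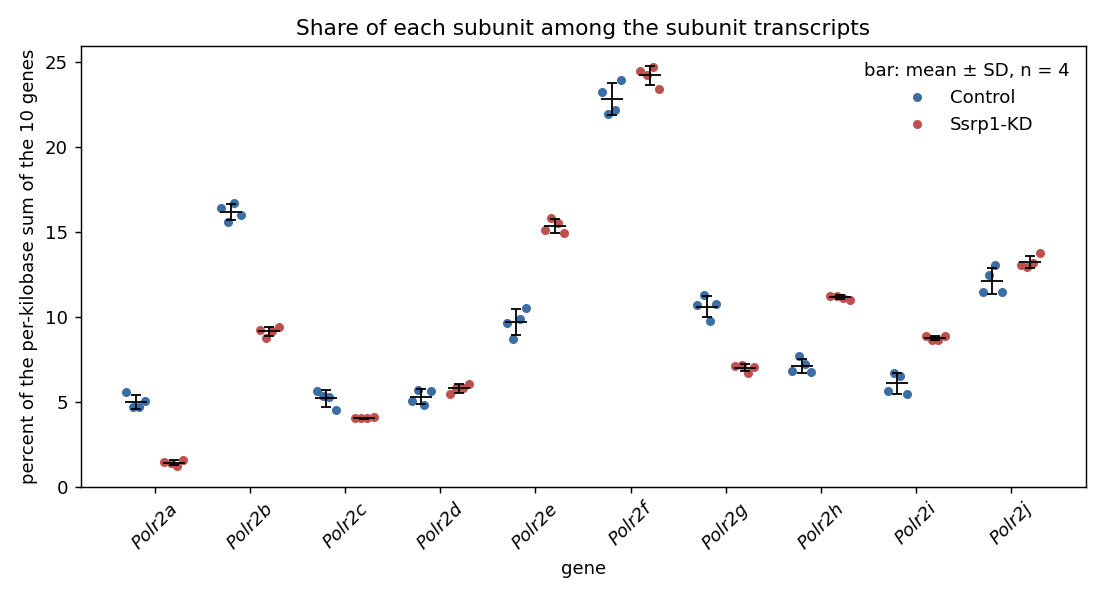
Percent of the per-kilobase sum of the 10 Pol II subunit genes held by each gene in 4 Control and 4 Ssrp1-KD libraries, each point a library, with mean and SD. The *Polr2a* share was 4.67 to 5.58% in Control and 1.21 to 1.55% in Ssrp1-KD, and the *Polr2e* share 8.67 to 10.5% and 14.9 to 15.8%. Shares were not corrected for the trend of fold change with exon length.

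Which genes are called higher or lower depends on the reference used. With the deposited spike-in scaling the median of all genes moved from -0.03 to 0.95, and the log2 fold changes were -0.09 for *Polr2a*, 0.92 for *Polr2b*, and 1.13 to 2.39 for the other 8 genes. By that scaling 8 of the 10 genes passed as higher and 0 as lower, and of all genes 7394 were higher and 1082 lower, against 1242 and 3163 with library size. In spike-in-scaled values *Polr2a* was at 102 to 172 in Control and 82.7 to 157 in Ssrp1-KD, with overlap. When each library was instead scaled to its reads on genes, a choice made after seeing the data, the median of all genes moved to -0.45, *Polr2a* was at -1.54, and *Polr2e*, *Polr2h*, and *Polr2i* were at 0.95, 0.92, and 0.80, so that 0 genes passed as higher and 1 as lower. Relative to the median of all genes, *Polr2a* was at -1.08 with library size, -1.04 with spike-ins, and -1.09 with reads on genes, and *Polr2e* at 1.41, 1.44, and 1.40. These 3 scalings each apply 1 factor to all genes of a library, so values relative to the median are held nearly fixed by construction. Quantile normalisation does not, and relative to its median *Polr2a* was at -1.59, *Polr2b* at -0.81, and *Polr2e* at 0.96. The sign of the fold change of *Polr2b*, *Polr2c*, and *Polr2g* was not the same under all scalings.

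**Figure D4:**
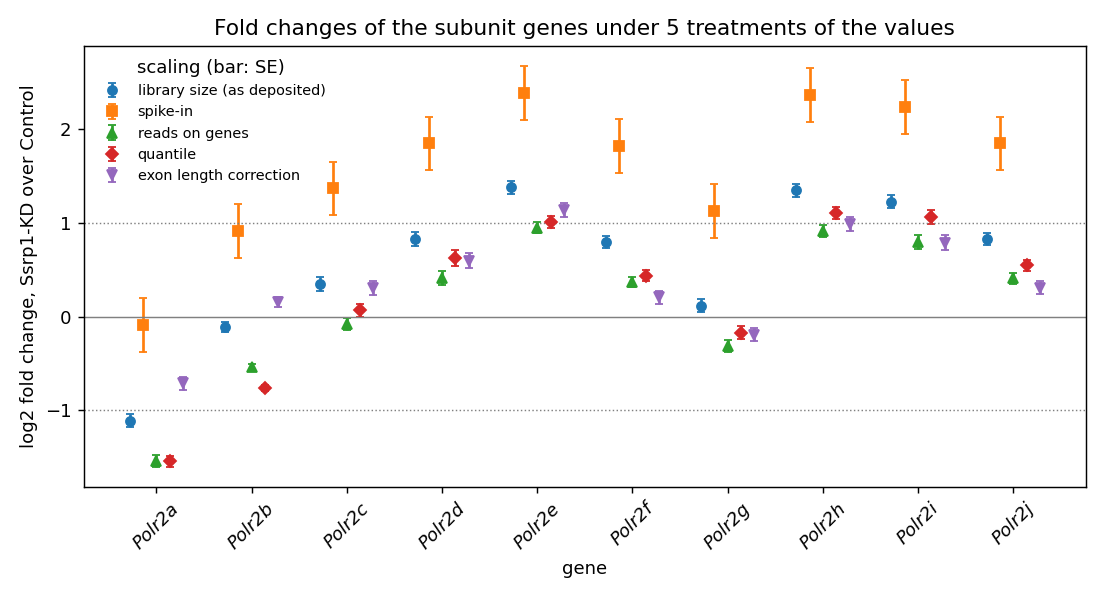
Log2 fold change (Ssrp1-KD over Control, with SE) of the 10 genes with the deposited library-size scaling, spike-in scaling, scaling to reads on genes, quantile normalisation, and correction for exon length; dotted lines mark the fold threshold. *Polr2a* lay between -1.54 and -0.09 and *Polr2e* between 0.95 and 2.39, whereas *Polr2b*, *Polr2c*, and *Polr2g* lay on both sides of 0.

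The other subunit genes measured, *Polr2k*, *Polr2l*, and *Polr2m*, all had an adjusted p below the threshold and a fold change under it. *Polr2k*, whose product RPB12 is shared with Pol I and Pol III, was at 10.7, 7.75, 7.00, and 10.7 in Control and 20.4, 15.4, 17.9, and 15.6 in Ssrp1-KD (log2 fold change 0.92, SE 0.143, limma adjusted p = 1.7e-06). *Polr2m*, whose product associates with Pol II, had the lowest log2 fold change of the 3, 0.40 with library size and -0.07 and -0.03 with quantile normalisation and with reads on genes.

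Of the 8 Pol I subunit genes, 1 passed as higher and 0 as lower, with a median of 0.34. This was *Polr1c*, a subunit of both Pol I and Pol III, at 86.2 ± 8.01 in Control and 198 ± 7.84 in Ssrp1-KD (log2 fold change 1.20). The gene of the largest Pol I subunit, *Polr1a*, had the lowest value of its list, -0.18. Of 11 Pol III subunit genes 1 passed as higher, with a median of 0.30. It was *Polr3g*, a subunit known from stem cells, at 64.8 ± 1.49 and 136 ± 4.55 (log2 fold change 1.07), and *Polr3c* was lowest at -0.67.

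Among 18 genes of the general transcription factors, which bring Pol II to promoters, 3 passed as higher and 0 as lower, and the median was 0.62. They belong to TFIIH and its kinase module: *Gtf2h1* (106 ± 6.00 to 241 ± 12.7, log2 fold change 1.18), *Gtf2h3* (1.07), and *Mnat1* (1.01). The list holds many TFIIH genes, and the other TFIIH genes on it did not pass. *Mnat1* was at the threshold and did not pass without Control replicate 2 (0.99), Control replicate 3 (0.96), or Ssrp1-KD replicate 3 (0.96). *Tbp*, the TATA-binding protein, had the lowest log2 fold change, -0.22. Of 16 genes for Pol II assembly and nuclear import, 3 passed as higher, with a median of 0.60. They were *Gpn1*, a GTPase of Pol II import (48.5 ± 3.05 to 110.0 ± 2.67, log2 fold change 1.18), *Ruvbl1*, an ATPase of the R2TP chaperone complex (74.3 ± 0.510 to 166 ± 3.79, 1.15), and the prefoldin subunit *Pfdn2* (1.06), and *Pdrg1* was lowest at -0.80. *Pfdn2* did not pass without Control replicate 3 (0.99) or after the exon length correction (0.56). Of 17 kinase and phosphatase genes acting on the C-terminal domain, 2 passed with both directions counted together, and the median was 0.40. The phosphatase *Ctdspl* was lower in Ssrp1-KD, at 11.3 ± 0.960 and 3.97 ± 0.316 (log2 fold change -1.40). The shares of these lists can be read against 8.07% of all genes higher and 20.6% lower, and the medians against -0.03. No test was made of the lists, and the values are SD with n = 4. With spike-in scaling *Polr1a*, *Polr3c*, *Tbp*, and *Pdrg1* were above 0. With reads on genes *Polr1c*, *Polr3g*, *Gtf2h1*, *Gtf2h3*, *Mnat1*, *Gpn1*, *Ruvbl1*, and *Pfdn2* did not pass (0.58 to 0.77), and *Polr3c* (-1.09) and *Pdrg1* (-1.23) passed as lower.

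Chromatin-associated RNA of E14 cells was measured in 2 libraries, with 3441643 and 3393923 counts. The 100 largest genes held 94.2% and 90.3% of them, so the subunit genes rest on few counts, 186 and 249 in all. *Polr2a* had 92 and 93 counts (95% exact Poisson intervals 74.2 to 113 and 75.1 to 114) and *Polr2b* 49 and 80 (36.2 to 64.8 and 63.4 to 99.6). *Polr2e* had 11 and 21, and *Polr2d* had 0 and 4. The intervals cover counting error only. Per kilobase of exon, *Polr2j* (5.00 CPM per kb), *Polr2b* (4.96), *Polr2a* (4.67), *Polr2e* (4.66), and *Polr2f* (4.50) led. The counting intervals of these 5 overlapped in both libraries. *Polr2a* was last of the 10 per kilobase in total RNA of Control, where its range overlapped that of *Polr2c*. In chromatin RNA it was in place 3, which the counts do not separate from the neighbouring places. Of the genes with an RNA-seq value, 93.2% had a lower chromatin RNA level than *Polr2a*. The median over the 10 genes was 4.05 CPM per kb against 0.699 for all genes with an RNA-seq value. These gene sets were not matched for their level in total RNA. Across the 10 genes Pearson's r between chromatin and total RNA per kilobase was 0.54 (log2 scale) and Spearman's rho 0.47.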

How the data were processed

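RNA-seq values were deposited by the authors as signal per gene and library, read counts scaled either to library size or to spike-ins. Per the labels and the methods, reads were aligned to mm10 with STAR (2.5.1b in the processing notes), counted with featureCounts, and genes above 1 CPM were kept. Raw counts of chromatin RNA were deposited for 27179 genes. The authors aligned ChIP-seq reads with Bowtie2 2.2.6 and called peaks with PePr on 2 replicates together, with ChIP-Enrich gene assignment. The deposited tables of the authors' own comparisons (log2 fold changes and p-values of KD, of NPCs, and of exon usage) were not used.

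Whole reads were recovered from the value steps, 100% of them within 0.1. Replicates differed by more than counting noise (chi-square over its degrees of freedom 1.88 or more), and the methods call the replicates biological. For the test, limma 3.58.1 with trend was fitted to log2(value + 0.5) of all 15384 genes in 4 Control and 4 Ssrp1-KD libraries, with Benjamini-Hochberg adjustment over all of them, and fold changes are on that scale. A gene passed if its adjusted p was below 0.01 and its log2 fold change beyond 1 in either direction. Alternatives were other pseudocounts (0.1 and 2), a filter on mean values above 5, other scalings, edgeR 4.0.16 and DESeq2 1.42.0 on the recovered reads, no trend, the adjusted p alone, a correction for exon length, leaving out each library, and a replicate block. The fit was tested on simulated data.

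The 10 genes, the lists, and the markers were chosen with earlier results of these data known. Named were the 10 genes, every list gene that passed (except 1 that is not reported here), the highest and lowest of each list otherwise, and *Ssrp1* and *Supt16*. *Igfbp7*, *Dok4*, *Amac1*, and *Gpx4* are named only for their overlap or nearness. The pairs for the ratios were chosen after the values were seen. Gene positions are those of the authors' mm10 annotation, and start sites and promoters those of RefSeq for GRCm38.p6. For *Polr2a* the former ends at 69758223 and the latter starts at 69758633. MNase-seq, ATAC-seq, NET-seq, and NPC data were not analysed here. R 4.3.3, Python 3.11.15, numpy 2.4.6, pandas 2.3.3, scipy 1.17.1, and matplotlib 3.10.9 were used.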

Additional observations from a re-analysis of the deposited data

Results flagged for a closer look

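Of 20 groups of 4 libraries (10 genes, each in Control and Ssrp1-KD), 2 held a library far from the other 3 by Dixon's criterion (a gap over the range above its critical value for 4 libraries), and chance gives about 1 in 20 groups. *Polr2g* was at 50.6 in Control replicate 3, against 61.3 to 61.5 in the others. *Polr2j* was at 84.2 in Ssrp1-KD replicate 3, against 79.3 to 80.1. Without these libraries the log2 fold changes were 0.05 for *Polr2g* and 0.81 for *Polr2j*, neither of which changed its side of the thresholds.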

How the results depend on the processing

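The counts of subunit genes that passed (3 higher, 1 lower) were the same with other pseudocounts, the filter, TMM scaling, DESeq2 size factors, quantile normalisation, edgeR, DESeq2, and no trend, and with each library left out (3 to 3 and 1 to 1). Of these, TMM scaling nearly gave back the deposited scale (median of all genes -0.04 against -0.03). The edgeR and DESeq2 fits kept the deposited library sizes. Their agreement therefore does not test the choice of reference. The counts were 8 and 0 with spike-ins, and 0 higher with reads on genes (chosen after seeing the data). They were 7 higher with the adjusted p alone, and 1 and 0 after the exon length correction. *Polr2b* reversed to 0.92 with spike-ins and 0.16 after the length correction, *Polr2c* to -0.08 with reads on genes, and *Polr2g* to -0.17, -0.31, and -0.19 with quantiles, reads on genes, and the length correction. The causes were not tested.

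With spike-ins the lists had 3 (*Polr2k* to *Polr2m*), 7 (Pol I), 10 (Pol III), 17 (general factors), 15 (assembly), and 11 (C-terminal domain) genes past the thresholds, and with the adjusted p alone 3, 7, 9, 16, 14, and 15. These counts join both directions. Of all 15384 genes, 7394 were higher and 1082 lower with spike-ins, and 35.4% higher and 37.3% lower with the adjusted p alone. With quantiles *Polr2k* to *Polr2m* had 1 and the Pol I, general factor, and C-terminal domain lists 0. With reads on genes the Pol I and general factor lists had 0 and the assembly list 1, which was *Pdrg1* as lower (-1.23) while *Gpn1*, *Ruvbl1*, and *Pfdn2* did not pass (0.75, 0.73, and 0.64). The Pol III count stayed at 1, with *Polr3c* as lower (-1.09) in place of *Polr3g* (0.64). With quantiles *Polr1c* (0.80), *Polr3g* (0.72), *Gtf2h1* (0.73), *Gtf2h3* (0.78), *Mnat1* (0.75), *Gpn1* (0.87), *Ruvbl1* (0.77), and *Ctdspl* (-0.60) did not pass, nor did *Ctdspl* with spike-ins (-0.45). With a pseudocount of 2 *Mnat1* (0.99) and *Pfdn2* (0.94) did not pass. Leaving out a library gave 2 to 3 for the general factor and the assembly lists. Leaving out a library gave 0 to 1 for *Polr2k* to *Polr2m* (1 without Control replicate 1 or 4) and 1 to 2 for the C-terminal domain list (1 without replicate 3 of either group). *Polr2m* reversed to -0.07 and -0.03 (quantiles, reads on genes), and with spike-ins *Polr1a* to 0.84, *Polr3c* to 0.33, *Tbp* to 0.79, and *Pdrg1* to 0.21, *Polr1a* also to 0.24 after the length correction.

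Of all genes, 7394 were higher and 1082 lower with spike-ins, 343 higher with reads on genes, 5447 and 5745 with the adjusted p alone, 2024 lower with the filter, and 1656 lower with quantiles. After the exon length correction 1360 were higher and 2813 lower. Leaving out a library gave 1210 to 1316 higher and 3044 to 3331 lower.

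SUPT16 peaks were at 1 subunit gene when required within 1000 bp of a start (15.6% of all genes) or on the gene body (15.8%). With peaks of at least 500 bp, SSRP1 was at 2 subunit genes (17.6% of all genes) and SUPT16 at 2 (6.08%). These were *Polr2a* and *Polr2e*, and the *Polr2e* peaks of that length lay outside the gene. The median chromatin RNA was 3.06 to 4.40 CPM per kb with 1 library, lowest without library 2, and 53.4 without the 100 largest genes in the total.

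Same-numbered Control and Ssrp1-KD libraries did not deviate together (r of 0.018, -0.015, -0.057, and -0.022), so the numbers were not treated as pairs. A fit with the replicate block left 3 subunit genes higher and 1 lower, with an SE of 0.062 for *Polr2a*. It moved none of the counts of lists, which stayed at 0, 1, 1, 3, 3, and 2, nor those of all genes, 1242 and 3163.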
